A study of Drosophila melanogaster with 6 samples.

Results

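The genes described here are those that drive and police cell division: cyclins and their kinases, the E2F and Rb regulators, the DNA replication machinery, enzymes of nucleotide supply, mitotic kinases, the spindle checkpoint, cohesin release, condensin and cytokinesis. They were chosen by name from a list of 52, to compare proliferation in the wing and haltere imaginal discs of Drosophila melanogaster. Under the names listed, 45 had a row in the authors' deposited table, which holds 7762 genes. The remaining 7 names (Cdk1, Cdk2, fzr, E2f1, aurA, aurB and wee) had no row as spelled, and a RefSeq gene table matched them to rows named cdc2, cdc2c, rap, E2f, aur, ial and Wee1. Values of those 7 are given beside the others, and counts refer to the 45 unless 52 is stated.

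The RNA came from whole discs dissected from wild-type Canton S larvae at the wandering L3 stage, with no treatment named, in 3 haltere disc and 3 wing disc samples. The labels do not say how many larvae went into a sample, and no age in hours is given. Messenger RNA was made into directional libraries, and the authors compared the tissues with edgeR, which fits a count model to every gene. Only that comparison was analysed here. For each gene it gives a log2 fold change, the mean level over both tissues in log2 CPM (a read count scaled to the size of its library), a p-value and an FDR (adjusted p-value). Values of single samples were not analysed here.

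Imaginal discs are epithelial sacs that grow by cell division in the larva and form the adult appendages, the wing from one pair and the haltere, a small balancing organ, from another. Cells enter S phase when cyclin-dependent kinases free E2F from the Rb protein, and E2F then raises the genes of DNA replication. They enter mitosis when the phosphatase String activates Cdk1. The wing disc is the larger of the discs, but CPM values are relative within a library and carry no count of cells. In whole discs, fewer dividing cells and less RNA per dividing cell cannot be told apart.

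Neither the table nor the labels name the numerator of the fold change. In the authors' deposited table Ubx, the homeotic gene of the haltere disc, stood at -5.22 (edgeR, FDR 2.98e-59), and Antp, the homeotic gene of the segment that bears the wing, at 2.08 (edgeR, FDR 3.56e-10). Positive values are therefore read as higher in the wing disc. This reading is an assumption, and every direction given below rests on it.

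No cell cycle gene passed the test in either direction. In the authors' deposited table the count at an FDR under 0.05 (edgeR) was 0 of 45, against 1.34% of all genes, and the deposited FDR was 1 for every one of them. At an unadjusted p under 0.05 (edgeR) the count was again 0 of 45, against 4.32% of all genes. The smallest p was 0.204, for Orc1 (edgeR). Among the 7 genes under other names the count was 0 at both thresholds, and the smallest p in the authors' deposited table was 0.0782, for cdc2 (edgeR).

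The changes were small as well as uncalled. In the authors' deposited table the 45 log2 fold changes ran from -0.38 for Orc1 to 0.23 for Ts, with a median of 0.03. Of these, 27 (60%) were above 0 and 18 below, against 50.1% of all genes above 0. Outside the 45, Cdk1, listed as cdc2, was higher, at 0.52. Within 0.25 of 0 lay 41 of the 45 (91.1%), against 74.5% of the 5466 genes in the same range of mean expression. The median absolute change was 0.10 among the cell cycle genes and 0.14 among the genes of that range. A p above 0.5 (edgeR) was held by 77.8% of the cell cycle genes and by 64.3% of the genes in the range, in the authors' deposited table. The range matches only the limits of expression: the median was 6.21 log2 CPM for the cell cycle genes and 4.98 for the genes in the range, and the error of a log2 change falls with expression. These shares are descriptions and were not tested.

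**Figure D1:**
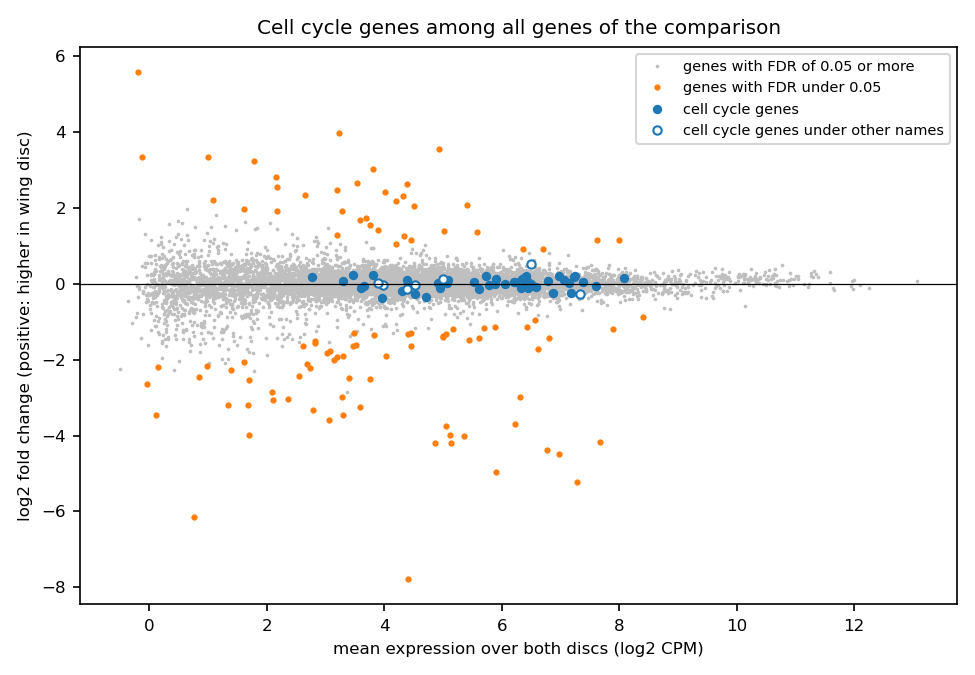
Log2 fold change (positive: higher in the wing disc) against mean expression over both discs in log2 CPM, 1 point per gene, from the authors' deposited table. The cell cycle genes (blue; open where the row has another name) sit close to 0 across mean expression of 2.78 to 8.08 log2 CPM, while the genes with an FDR under 0.05 (orange) lie far from 0.

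What changes these data could have shown was gauged from the deposited values. A rough standard error was obtained as the size of the log2 change over the normal score of its two-sided p, and a rough 95% interval as 1.96 of these on each side. The median standard error was 0.25 for the cell cycle genes and 0.29 for the genes in their range of expression. A typical interval thus reached 0.50 to either side, or 1.41-fold. All 45 intervals held 0, which only restates that every p was above 0.05 (edgeR), since the errors come from those p-values. Of the 45, 43 lay wholly within 1 of 0, that is within a 2-fold change in either direction. The exceptions were borr, from -1.08 to 0.70, and Orc6, from -0.72 to 1.08. Outside the 45, the interval of Cdk1, listed as cdc2, also passed 1, from -0.06 to 1.10. Only 3 of the 45 intervals lay within 0.5 of 0. The smallest absolute change called at an FDR under 0.05 (edgeR) among the genes of the same expression range was 0.92, or 1.89-fold, in the authors' deposited table. Differences well under that size, in one gene or shared by many, were not detectable gene by gene.

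**Figure D2:**
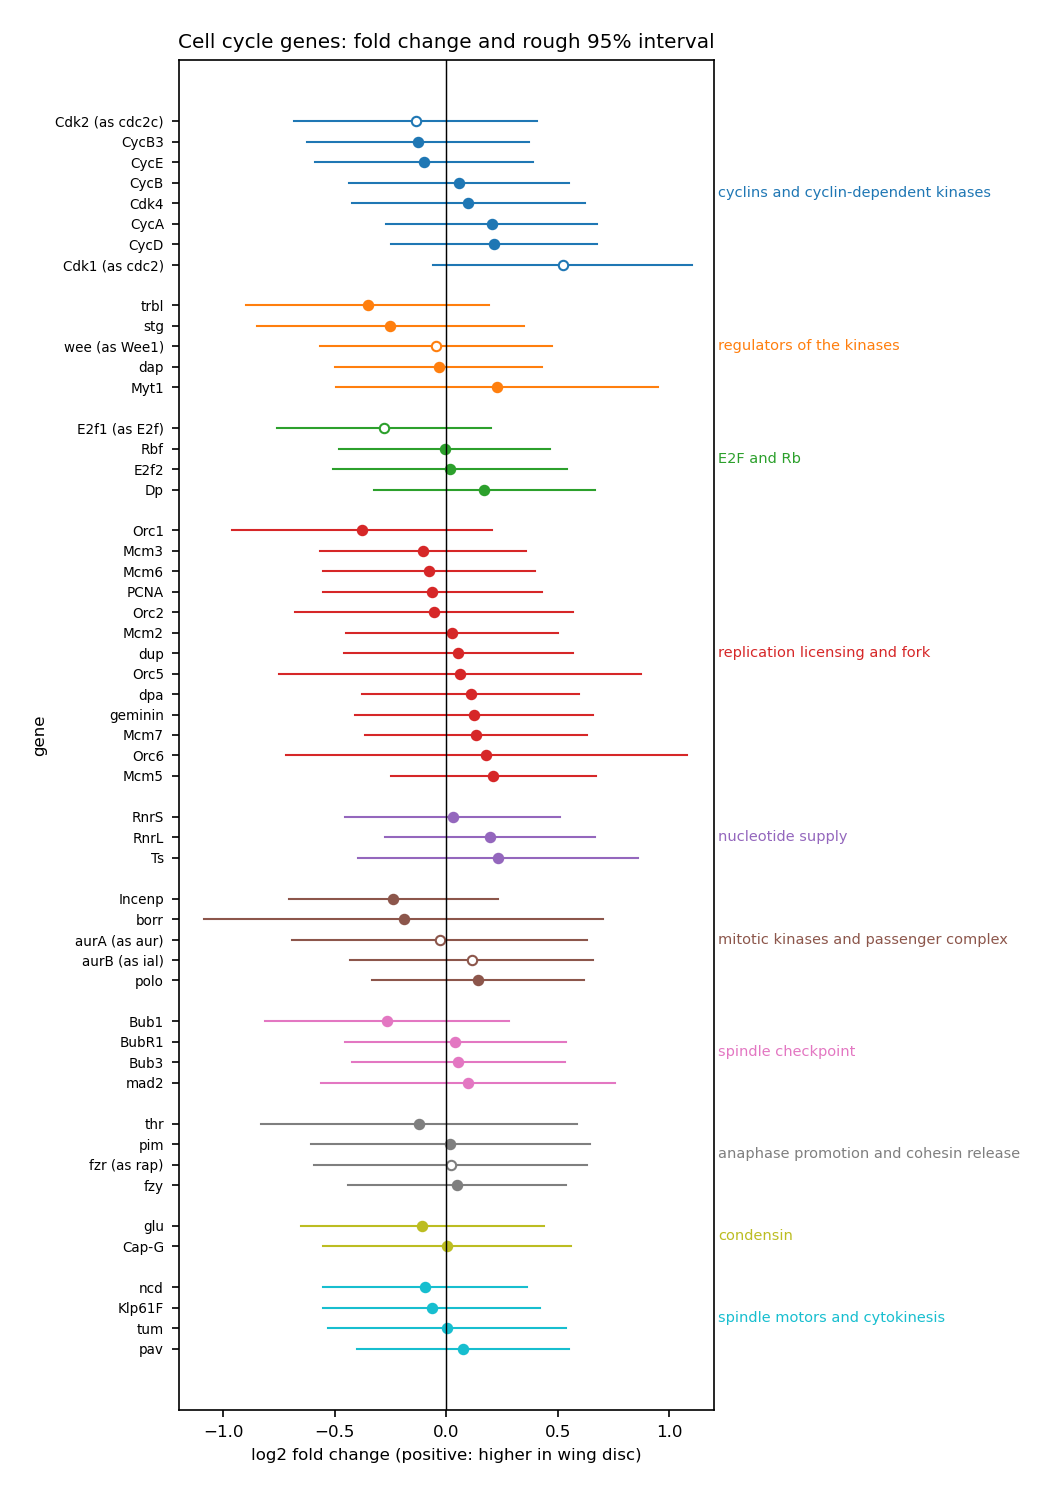
Log2 fold change of each cell cycle gene (points; open where the row has another name) with its rough 95% interval (lines), grouped by role; positive values are higher in the wing disc. All 52 intervals cross 0, and the point farthest to the right is Cdk1, listed as cdc2, at 0.52.

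The cyclins and their kinases set the pace of the cycle. CycA, needed for entry into mitosis, was at 0.20 with a p of 0.40 (edgeR) in the authors' deposited table. CycB, another mitotic cyclin, was at 0.06, and CycB3, a later mitotic cyclin, at -0.13, in the same table. Of the G1 cyclins, CycD, which promotes growth and cycling with Cdk4, was at 0.21 and CycE, which triggers S phase, at -0.10 in the authors' deposited table. Cdk4 was at 0.10. Both members of the cyclin D and Cdk4 pair were thus slightly above 0, with p-values of 0.365 and 0.711 (edgeR) in the authors' deposited table.

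The largest value among the 52 names belonged to a kinase listed under another name. Cdk1, the mitotic kinase, listed as cdc2 (chr2L:10384739-10386262, minus strand, dm6), was at 0.52, or 1.44-fold higher in the wing disc as read, with a p of 0.0782 (edgeR, FDR 1), in the authors' deposited table. Its rough interval ran from -0.06 to 1.10. No other annotated gene overlaps it. CycA and CycB, its cyclin partners, were at 0.20 and 0.06, as given above. Cdk2, the S phase kinase, listed as cdc2c, was at -0.14 with a p of 0.624 (edgeR) in the authors' deposited table.

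Of the 4 regulators of these kinases among the 45, 3 were below 0, as was wee, listed as Wee1, and none passed the test. The lowest was trbl (chr3L:20396288-20401609, minus strand, dm6), whose product Tribbles promotes the breakdown of String, at -0.35 in the authors' deposited table, with a p of 0.205 (edgeR). The phosphatase gene stg (chr3R:29251826-29255800, minus strand, dm6), String itself, was at -0.25 with a p of 0.411 (edgeR) in the same table. An activator of mitotic entry and its own antagonist thus had the same sign. The inhibitory kinases of Cdk1 were at 0.23 for Myt1 and -0.04 for wee, listed as Wee1, in the authors' deposited table. The inhibitor of cyclin E and Cdk2, dap (dacapo), was at -0.03. Rough intervals of all 5 held 0.

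The E2F and Rb genes ran from -0.28 to 0.17, and none passed the test. The repressor-type E2f2 was at 0.02, the shared partner Dp at 0.17 and Rbf, the Rb protein that binds E2F, at -0.01 in the authors' deposited table. The activator E2f1, listed as E2f, was at -0.28 with a p of 0.256 (edgeR) in the same table.

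The replication genes form the largest group, 13 in number, with a median of 0.05, 8 above 0 and 5 below in the authors' deposited table. The MCM helicase, which unwinds DNA at the fork, has 6 subunits, and all lay between -0.10 for Mcm3 and 0.21 for Mcm5. Between them stood Mcm6 at -0.08, Mcm2 at 0.03, dpa (the fly's Mcm4) at 0.11 and Mcm7 at 0.13 in the authors' deposited table. The sliding clamp PCNA was at -0.06 with a p of 0.802 (edgeR). The helicase loader dup (the fly's Cdt1) was at 0.05 and its inhibitor geminin at 0.12 in the authors' deposited table. Their p-values in the same table were 0.833 and 0.648 (edgeR).

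The 4 listed subunits of the origin recognition complex, which marks where replication can start, spread more widely. Its other subunits were not on the list. In the authors' deposited table Orc1 (chr2R:7522437-7525716, minus strand, dm6) was at -0.38, or 1.30-fold higher in the haltere disc as read, with a p of 0.204 (edgeR). Orc2 was at -0.06, Orc5 at 0.06 and Orc6 at 0.18 in the same table. These were also among the least expressed members, and their rough standard errors ran from 0.30 to 0.46, against 0.24 to 0.25 for the MCM subunits. The SD of the log2 change across the 4 subunits, 0.24, was below those errors.

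All 3 genes of nucleotide supply were above 0. The ribonucleotide reductase subunits, which make deoxyribonucleotides, were at 0.20 for RnrL and 0.03 for RnrS in the authors' deposited table. Thymidylate synthase, Ts, was at 0.23 with a p of 0.472 (edgeR). The smallest p of the 3 was 0.41, for RnrL (edgeR), in the authors' deposited table.

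Genes of mitosis fell on both sides. Over the 16 genes of mitotic kinases, checkpoint, cohesin release, condensin, motors and cytokinesis the median log2 change was 0.003, with 9 above 0, against a median of 0.06 and 11 above 0 among the 16 genes of replication and nucleotide supply. This difference between phases was not tested. The mitotic kinase polo had a log2 change of 0.14 and a p of 0.555 (edgeR), per the authors' deposited table. The passenger complex, which corrects the attachment of chromosomes to the spindle, had Incenp at -0.24, borr at -0.19 and its kinase aurB, listed as ial, at 0.11 in the same table. The centrosomal kinase aurA, listed as aur, was at -0.03.

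The spindle checkpoint delays anaphase until all chromosomes are attached. Its genes were at 0.04 for BubR1, 0.05 for Bub3 and 0.10 for mad2, and the lowest was Bub1 (chr2L:5278865-5283283, plus strand, dm6) at -0.27 with a p of 0.342 (edgeR), in the authors' deposited table. Activators of the anaphase-promoting complex, a ubiquitin ligase, were at 0.05 for fzy (the fly's Cdc20) and 0.02 for fzr (the fly's Cdh1), listed as rap. Securin, pim, was at 0.02, and thr, the separase it holds back, at -0.12 in the authors' deposited table. The condensin genes glu (SMC4) and Cap-G were at -0.11 and 0.003 in the same table. Among motors and cytokinesis genes, the kinesins Klp61F and ncd, which act against each other on spindle microtubules, were at -0.06 and -0.10. The centralspindlin partners pav and tum, which build the midzone for cytokinesis, were at 0.08 and 0.003 in the authors' deposited table.

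Levels differed far more between the genes than between the discs. Mean CPM per kilobase of annotated exon, over both discs, ran from 2.65 for thr to 183 for PCNA, with a median of 25.5, against 8.86 over all genes, and 37 of the 45 lay above that all-gene median. After PCNA came polo at 90.5, RnrS at 89.3, Bub3 at 63.8, geminin at 56.1, CycB at 55.1 and CycA at 51.9 CPM per kilobase. Cdk1, listed as cdc2, was at 83.6. No spread between samples is known for these levels, so neighbours in this order, such as polo and RnrS, are not shown to differ.

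Subunits of a complex had like levels in some cases and unlike levels in others. The 6 MCM genes lay between 29.6 CPM per kilobase for Mcm2 and 43.3 for dpa, a ratio of 1.46. The 4 listed ORC genes, a part of the complex, lay between 4.92 for Orc1 and 7.05 for Orc6. The median of the MCM genes was 5.57 times that of these 4 genes. All 4 ORC genes overlap a gene on the opposite strand, as do Mcm3 and Mcm7 but no other MCM gene. Whether reads lost in such overlaps lowered these levels was not tested. Condensin's glu and Cap-G were at 17.7 and 15.2, and the centralspindlin pair pav and tum at 34.5 and 38.3 CPM per kilobase. By contrast pim, at 34.4, exceeded its partner thr at 2.65, and geminin, at 56.1, exceeded its target dup at 14.7 CPM per kilobase. RnrS, at 89.3, exceeded RnrL at 48.6. The G1 cyclin CycE, at 6.09, was the lowest of the cyclins. The lower partners thr and dup also overlap a gene on the opposite strand, whereas pim and geminin overlap none. Among the cyclins, CycE and CycA have such an overlap. Its part in these levels was not tested either.

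**Figure D3:**
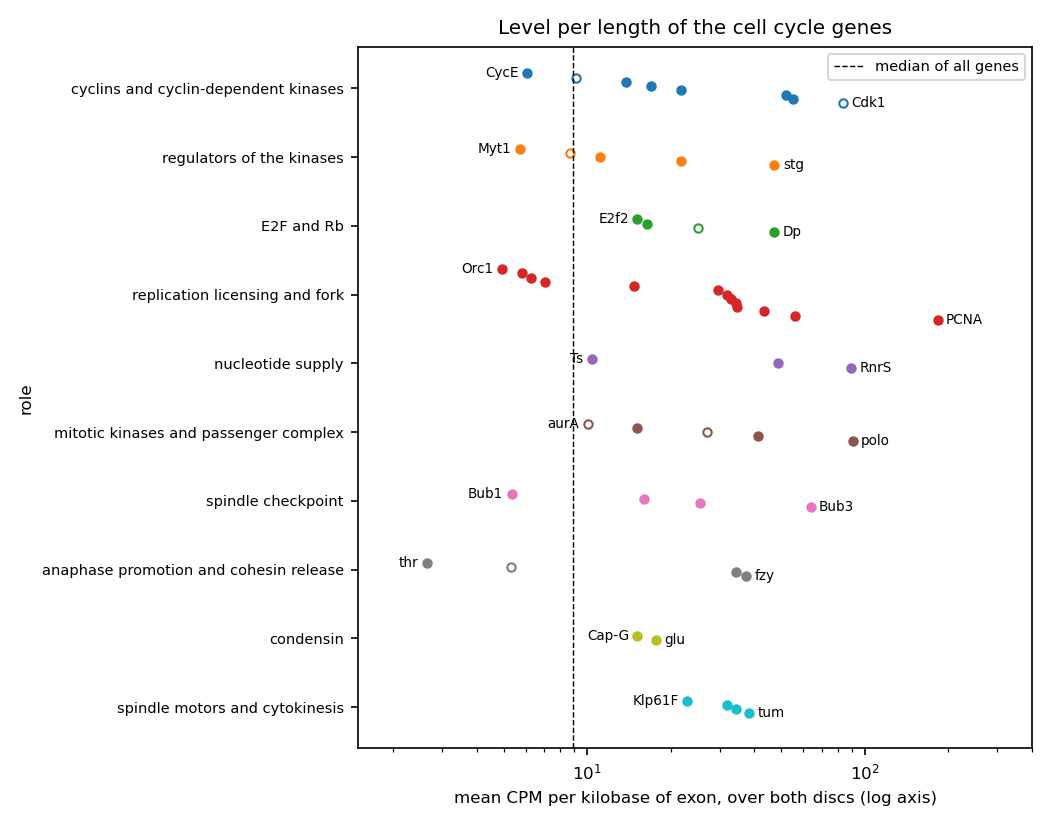
Mean CPM per kilobase of annotated exon over both discs (log axis) for each cell cycle gene by role, with the lowest and highest of each role named; open points have another name in the table, and the dashed line is the median of all genes at 8.86. The MCM genes form a tight group around a median of 33.8 CPM per kilobase, well above the 4 ORC genes, and PCNA stands highest at 183.

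The genes shared no position in the genome. Of the 45, 16 lie on chromosome arm 2R, 10 on 2L, 8 on 3L, 7 on 3R and 4 on X (dm6, Ensembl annotation). The X-linked members CycD, Rbf, Mcm3 and Mcm6 were at 0.21, -0.01, -0.10 and -0.08 in the authors' deposited table, within the range of the autosomal members. Another annotated gene overlaps 21 of the 45, in each case including one on the opposite strand. Whether reads were counted by strand is not given in the sources used here, so reads of such pairs may have been dropped or shared.

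Other genes of the same processes were taken from lists of DNA polymerases and fork proteins, cohesin and kinetochore genes, ubiquitin ligases, DNA damage checkpoint genes, and other spindle, centrosome and cytokinesis genes. The last list also holds cyclins, a kinase and kinase regulators (CycG, CycH, CycY, Cdk7, Cks30A, Cks85A and twe). The cohesin and kinetochore list also holds the condensin genes barr, Cap-D2, Cap-H2, Cap-D3 and SMC2. Of their 123 genes with a row, none passed an FDR of 0.05 and 1 had an unadjusted p under 0.05 (edgeR) in the authors' deposited table, against 1.34% and 4.32% of all genes. Their median log2 change was -0.003, with 61 above 0 and 62 below. The 1 gene was RfC3, a subunit of the clamp loader that places PCNA on DNA, at 0.63 in the authors' deposited table, with a p of 0.0445 (edgeR, FDR 1).

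The next highest values were 0.35 for Nuf2, of the kinetochore, and 0.33 for DNApol-alpha50, a primase subunit, in the same table. The lowest were -0.43 for ana1, of the centriole, -0.43 for Cenp-C, of the centromere, and -0.41 for Sas-4, of the centriole, with p-values of 0.147, 0.106 and 0.289 (edgeR) in the authors' deposited table. Polymerase and fork genes had 22 of 34 (64.7%) above 0, against 50.1% of all genes, with a median of 0.03. Other spindle, centrosome and cytokinesis genes had 25 of 36 below 0, with a median of -0.05. Cohesin and kinetochore genes split 11 to 11, DNA damage checkpoint genes 6 to 6, and ubiquitin ligase genes 11 above to 8 below 0.

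Markers of other larval cell types did differ between the libraries. Of 9 fat body genes, 8 were negative in the authors' deposited table, 6 of them past an FDR of 0.05 (edgeR), with a median of -4.16. All 12 larval muscle genes were negative, 8 of them past that FDR, with a median of -1.58, and all 6 salivary gland genes, 5 past it, with a median of -3.35. Markers of the adult muscle precursors, dividing cells attached to the wing disc, were all positive, 7 of 7, with a median of 0.94, and twi and Him passed at 1.93 and 2.55 (edgeR, FDR 0.00501 and 0.000119). Hemocyte genes had a median of -0.33 (7 of 8 negative) and tracheal genes -0.25 (4 of 7 negative), with none called in the authors' deposited table. Summed levels in each tissue were not analysed here. The part of these other cells in the values of the cell cycle genes was not tested.

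**Figure D4:**
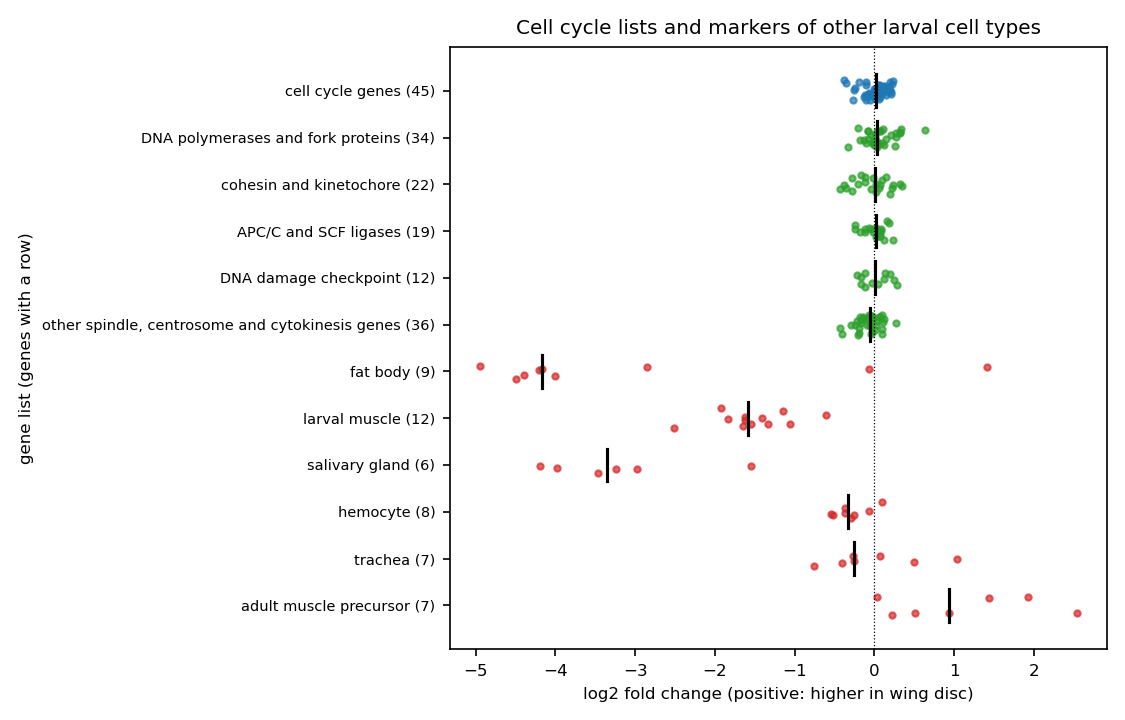
Log2 fold change (positive: higher in the wing disc) of single genes by list, with the number of genes in brackets and the median as a black bar. The cell cycle genes (blue) and related lists (green) centre on 0, with medians from -0.05 to 0.03, whereas fat body, larval muscle and salivary gland markers (red) lie to the left and adult muscle precursor markers to the right.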

How the data were processed

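Per the submitters' processing notes, the tools were HISAT2, HTSeq and edgeR and the build dm6; versions, annotation, filters, the edgeR test and strand setting are not given in the sources used here. The authors deposited 1 table, whose log2 fold changes and mean log2 CPM, per the file headers, and whose p-values and FDR were used as deposited. It has 7767 rows, of which 5 are HTSeq summary lines, left out of all gene counts. It has 0 columns of per-sample values left aside, so depth, SDs and detection floors are unknown, and no test across samples was run. The planned quasi-likelihood test on counts was replaced by its planned fallback, the authors' FDR under 0.05. The series' design text calls the replicates independent and biological.

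Exon lengths (all annotated exons, overlaps counted once) and coordinates came from Ensembl release 115, BDGP6.54, in dm6 coordinates, which matched 98.7% of genes. Every listed gene is named with its values. Of the other pathway genes, values were given for those with p under 0.05 and for the 3 highest and lowest. Genes and lists were chosen with earlier results of these data known. The arithmetic of the adjustment and of the implied standard error was checked on simulated data. Whether the rough intervals hold for the deposited p-values was not tested. Computations used Python 3.11.15, pandas 2.3.3 and scipy 1.17.1.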

Additional observations from a re-analysis of the deposited data

Results flagged for a closer look

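HTSeq's 5 summary lines, kept as rows although they are no genes, held 43.3% of the summed mean CPM in the authors' deposited table, a signal outside the genes compared. Levels per kilobase given for the cell cycle genes are thus scaled to totals with unassigned reads included. The lines were also rows of the authors' comparison. Whether they affected its fold changes and p-values was not tested.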

How the results depend on the processing

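The count of cell cycle genes past the FDR was 0 in the report and 0 under an FDR of 0.01 or 0.1, a Bonferroni adjustment, a minimum of 1 log2 CPM with readjustment, recomputed Benjamini-Hochberg values, removal of the summary lines, and with the 7 rows under other names. The count at an unadjusted p (edgeR) was 0 at 0.05, 0.01 and 0.1. Stricter cutoffs and the Bonferroni adjustment could only return 0, since the main counts were 0. With the smallest p of the 45 at 0.204 (edgeR), the looser cutoffs of 0.1 were settled as well. The 7 rows under other names add 0 at 0.05 and 1 at 0.1, cdc2 with a p of 0.0782 (edgeR). The median log2 change, 0.03 as deposited, was 0.02 under each centring, with a minimum of 4 log2 CPM, with the other names, and without genes that overlap another. The last 2 were chosen after seeing the data, as was the longest transcript in place of all exons. For the MCM and ORC genes these 2 lengths are the same, so their ratio of levels, 5.57, could not change. All of these act on the same deposited values, so agreement among them says nothing of replicate error. No paired analysis was possible because the table holds no values per sample. DESeq2 and the fits without each replicate were not run for want of such values. The promoter motif search was not run, since no promoter sequences were used here. The rough intervals treat the edgeR p-values as normal. They were wider, in the median, at low expression: the median standard error was 0.36 for the 7 genes under 4 log2 CPM and 0.25 for the other 38, with borr, at 4.30 log2 CPM and 0.46, an exception.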
